A study of Mus musculus with 7 samples.

Results

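Collagens are triple-helical proteins of the extracellular matrix, and each type is assembled in the endoplasmic reticulum from chains encoded by separate genes. Fibrillar types I, II, III, V and XI form cross-banded fibres, type IV forms the sheet of basement membranes, FACIT types such as XII, XIV and XVI sit on the surface of fibres, and type VI forms beaded filaments around cells. Type VIII and X chains build short-chain networks, types XV and XVIII are multiplexins of basement membrane zones, and types XIII, XVII, XXIII and XXV span the membrane. The epicardium is the mesothelial sheet on the surface of the heart, which rests on a basement membrane and gives rise to the fibroblasts and mural cells that lay down much of the cardiac matrix.

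The collagen chain genes were the 42 rows, of 22738 gene rows, whose name was Col followed by a type number, the letter a and a chain number, as in Col4a1. Their counts came from 7 RNA sequencing libraries of epicardial explants, 3 from Lmnb1-/- embryos, which lack the nuclear lamina protein lamin B1, and 4 from wild type embryos. All were E12.5 mouse embryos whose background mixed C57BL/6, 129S4Sv/Jae and 129S6/SvEvTac. Ventricles were placed on gelatin for 48 hours, the heart tissue was taken away, and the cells that had migrated out grew for another 72 hours without treatment. The series asks what lamin B1 contributes to the timing of epicardial migration. The labels name no allele beyond Lmnb1-/- and do not say whether a library is one embryo, a litter or a pool, so p-values measure the spread between these libraries, which may be partly technical. Gelatin, on which the cells grew, is itself denatured collagen and adds protein but no mouse transcripts.

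Total counts ran from 1786519 to 3066936 in the Lmnb1-/- libraries and from 1024898 to 2732236 in the wild type libraries. Lmnb1 had 4, 2 and 4 counts in Lmnb1-/- replicates 1 to 3 and 463, 185, 488 and 567 in wild type replicates 1 to 4, so the labels matched the target gene in all 7 libraries. Counts of Xist and Y-linked genes placed wild type replicates 1 and 3 as female and the other 5 libraries, all 3 Lmnb1-/- among them, as male. All 10 epicardial markers examined passed the count filter, among them Wt1, Tbx18, Tcf21 and Aldh1a2, as did 2 of 8 cardiomyocyte markers and 4 of 9 cartilage markers. The cardiomyocyte genes were Myl7, at 297 to 435 CPM in Lmnb1-/- and 273 to 610.2 CPM in wild type libraries, and Tnnt2, at 115 to 122 CPM in Lmnb1-/- and 94.4 to 147 CPM in wild type libraries, while Myh7 and Actn2 were at 0 and the other 4 had 10 counts or fewer. The cartilage genes were Sox5, Sox6, Sox9 and Acan, while Matn1 and Epyc were at 0 and the other 3 had 10 counts or fewer. Collagen rows held 2.15, 2.30 and 2.35% of the counts in Lmnb1-/- replicates 1 to 3, and 2.17, 3.99, 2.83 and 3.07% in wild type replicates 1 to 4. Wilson 95% intervals, which cover counting error only, were narrow, for example 2.13 to 2.16% in Lmnb1-/- replicate 1 and 3.95 to 4.03% in wild type replicate 2. The share in wild type replicate 1 lay within the range of the Lmnb1-/- libraries, and that of wild type replicate 2 was the highest.

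Promoter windows are shown for Col4a1 with Col4a2 and for Col6a1 with Col6a2. Each pair lies side by side on its chromosome and had similar fold changes. The pairs Col4a5 with Col4a6 and Col4a3 with Col4a4 also do so, and are not shown. Whether these windows bear on the fold changes was not tested. The windows are RefSeq sequences of build GRCm38.p6, from 250 bases before to 50 after an annotated start. They are written 5′ to 3′ on the gene's own strand, and capitals mark matches on either strand to any of 3 motifs. The first is the GC box, GGGCGG. Another is the CCAAT box, searched by its own letters. The last is the AP-1 site, spelled TGACTCA. Col4a1 is on the minus strand at chr8:11312777-11313076 and Col4a2 on the plus strand at chr8:11312555-11312854. Col6a1 and Col6a2 are both on the minus strand, at chr10:76725995-76726294 and chr10:76623355-76623654.
Col4a1: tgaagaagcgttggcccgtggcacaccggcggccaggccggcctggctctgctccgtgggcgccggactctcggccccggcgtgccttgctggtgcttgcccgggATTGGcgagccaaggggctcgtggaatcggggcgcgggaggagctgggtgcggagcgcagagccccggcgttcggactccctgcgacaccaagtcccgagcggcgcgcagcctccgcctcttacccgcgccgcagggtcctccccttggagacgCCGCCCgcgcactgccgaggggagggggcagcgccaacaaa
Col4a2: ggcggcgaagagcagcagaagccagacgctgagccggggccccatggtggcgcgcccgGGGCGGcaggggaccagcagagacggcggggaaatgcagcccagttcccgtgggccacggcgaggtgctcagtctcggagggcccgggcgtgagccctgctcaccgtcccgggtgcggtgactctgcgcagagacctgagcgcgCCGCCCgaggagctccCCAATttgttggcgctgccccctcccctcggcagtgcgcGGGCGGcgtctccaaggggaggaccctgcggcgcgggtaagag
Col6a1: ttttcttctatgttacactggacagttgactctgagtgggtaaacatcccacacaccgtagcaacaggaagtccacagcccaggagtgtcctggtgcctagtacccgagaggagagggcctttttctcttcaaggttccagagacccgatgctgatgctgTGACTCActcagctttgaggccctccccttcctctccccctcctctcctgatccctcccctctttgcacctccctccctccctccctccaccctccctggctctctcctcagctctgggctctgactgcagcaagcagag
Col6a2: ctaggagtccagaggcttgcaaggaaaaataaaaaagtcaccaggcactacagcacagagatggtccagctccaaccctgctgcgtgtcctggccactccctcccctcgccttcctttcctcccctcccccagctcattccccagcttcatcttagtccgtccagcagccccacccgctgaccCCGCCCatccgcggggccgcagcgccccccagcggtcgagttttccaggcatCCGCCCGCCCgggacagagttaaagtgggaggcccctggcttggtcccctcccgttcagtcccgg

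The Col4a1 and Col4a2 windows shared 78 bases, since the genes are read away from each other from nearly the same place. Both were GC rich, at 74.0 and 73.7%, and both held a CCAAT box and at least 1 GC box. The GC box of Col4a1 and the last GC box of Col4a2 are the same bases of the shared stretch, read on opposite strands. GC boxes were found in 35.7% and CCAAT boxes in 37.4% of all 32851 windows in the table. Col6a1 held no GC or CCAAT box but had an AP-1 match starting 90 bases before its start, a match found in 5.2% of all windows. The Col6a2 window shown had 3 GC boxes, of which 2 overlap, and the other annotated start of that gene had 1. A match describes letters and is not evidence of binding. Windows were found for 34 of the 42 collagen rows.

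In the wild type explants the most abundant collagen transcripts per length were a fibrillar and a basement membrane chain. Levels between genes are given as CPM, the count of a gene relative to the scaled library total, divided by the length in kilobases of the longest coding transcript in a GRCm38 annotation. On that scale Col5a2, the minor fibrillar chain that shares heterotrimers with Col5a1, stood at 623 ± 80.6 in Lmnb1-/- and 903 ± 233 in wild type explants (SD, n = 3 and 4). Col4a1, a type IV chain, stood at 648 ± 36.8 in Lmnb1-/- and 893 ± 199.9 in wild type explants. These 2 genes, whose wild type means differed by less than their spread, were followed in wild type by Col1a2 at 630.0, the type VIII chain Col8a1 at 620, Col4a2 at 527, Col3a1 at 410 and Col1a1 at 339 CPM per kb. Neighbours in that order overlapped in their spreads. The Col1a1 mean, with an SD of 339.9, rests on wild type replicate 2, and without that library it was 170.2 ± 36.9 CPM per kb, below the 191 ± 39.9 of Col11a1 (SD, n = 3). Col11a1, the fibril nucleating chain first known from cartilage, was at 165 ± 16.2 in Lmnb1-/- and 215 ± 57.5 CPM per kb in wild type explants, although its cartilage partner Col2a1 had no count in any library.

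Of the 42 rows, 23 passed the count filter and were tested, and 19 did not. The untested rows were 4 fibrillar, 6 FACIT, 3 beaded, 1 short-chain and 1 other gene and all 4 transmembrane genes, Col13a1, Col17a1, Col23a1 and Col25a1. No untested row had more than 13 counts in a library, and 16 of the 19 had 10 or fewer. Among the transmembrane genes, Col17a1, a hemidesmosome collagen of epithelia, had 5, 2 and 2 counts in Lmnb1-/- and 2, 0, 3 and 4 in wild type libraries, and the others had at most 3 in any library. Col2a1, Col9a1, Col25a1 and Col28a1 were at 0 throughout. A count of 0 allows up to 0.445 CPM in the pooled Lmnb1-/- libraries and up to 0.357 CPM in the pooled wild type libraries, taking 3 counts as the limit.

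Collagen transcripts were mostly at lower levels in Lmnb1-/- explants, but no single gene passed the test. Of the 23 tested genes 19 had a log2 fold change below 0 and 4 above, and the median was -0.39, beside -0.015 for all 10775 tested genes, of which 52.4% were below 0. In the quasi-likelihood test of edgeR, with p-values adjusted over all genes after Benjamini and Hochberg, 0 of the 23 passed at 0.05, where 0.705% of all tested genes did. An unadjusted p under 0.05 was reached by 12 of the 23, 10 lower and 2 higher, where 13.6% of all genes reached it (7.43% lower and 6.2% higher). DESeq2 called Col6a1 lower (as 1.18% of genes it tested) and Col12a1 higher (as 0.885%), and limma voom called 0 (0.427% of genes). For 5 genes no Lmnb1-/- library lay inside the wild type range of CPM, Col1a1, Col6a1, Col6a2 and Col15a1 being lower and Col12a1 higher, and 13.3% of all tested genes were separated in this way (6.92% lower and 6.36% higher). Col15a1 is among the 10 genes lower by unadjusted p and among the 5 separated genes. It reached the filter's level of 4.42 CPM in no Lmnb1-/- library and was tested through its wild type libraries alone. Its direction was therefore bound to follow, and its place in those counts is no support. Of the other 22 genes 18 were below 0, with a median of -0.38.

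**Figure D1:**
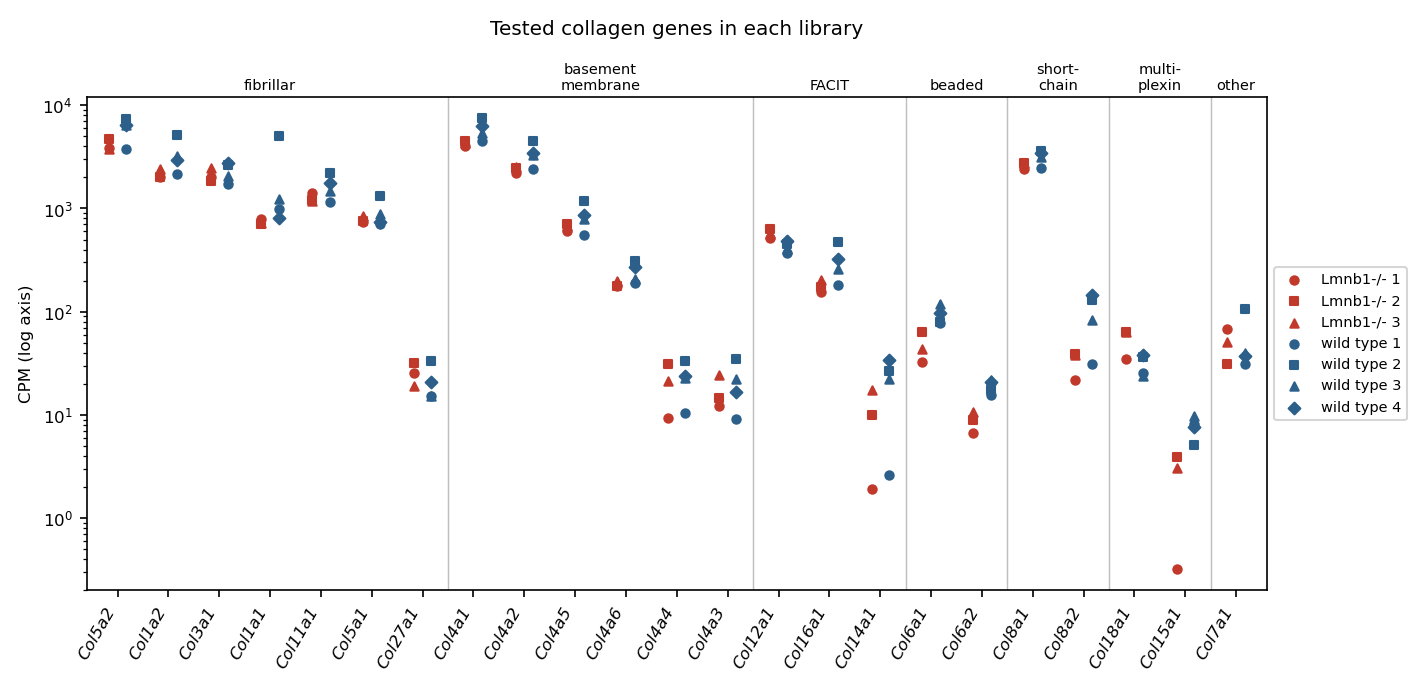
Level of each tested collagen gene in CPM on a log axis, with Lmnb1-/- libraries in red to the left and wild type libraries in blue, symbols giving the replicate and columns grouped by class. Col1a1, Col6a1, Col6a2 and Col15a1 lie lower and Col12a1 higher in every Lmnb1-/- library than in any wild type library. The Col1a1 point at 5024 CPM is wild type replicate 2. Col15a1 passed the count filter through its wild type libraries alone.

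The libraries themselves differed. As a description, the median over the 23 genes of the log2 ratio to the wild type mean was -0.63, -0.46 and -0.33 in Lmnb1-/- replicates 1 to 3, and -0.50, 0.39, -0.08 and 0.07 in wild type replicates 1 to 4. Wild type replicate 1 thus lay among the Lmnb1-/- libraries, and it had the lowest wild type level for 20 of the 23 genes, while wild type replicate 2, the shallowest library, had the highest for 15. Without wild type replicate 1, 6 collagen genes passed, all lower: Col4a1, Col4a2, Col5a2, Col6a1, Col6a2 and Col8a2 (1.56% of all genes were called lower there). That library had been singled out from these same values, so leaving it out favours lower calls. No collagen gene passed when any other single library was left out. Among the 5 male libraries alone, the 3 Lmnb1-/- libraries were set against wild type replicates 2 and 4. There 6 collagen genes passed, all lower: Col4a1, Col4a2, Col4a6, Col5a2, Col8a2 and Col16a1 (0.622% of all genes). This fit leaves out wild type replicate 1 as well, so it is not a separate check. With sex as a covariate 1 collagen gene passed, Col16a1 (0.251% of all genes were called lower). The median of tested collagens was -0.51 without wild type replicate 1, -0.64 among male libraries and -0.26 without wild type replicate 2. Smooth muscle and pericyte markers lay lower as well, with 13 of 13 tested markers below 0, 5 of them called lower (0.343% of all genes were). Among the 13, Notch3 was at 3.86, 2.24 and 1.03 CPM in Lmnb1-/- libraries, under the filter's level of 4.42 CPM. That gene was tested through wild type libraries alone, so its direction was bound to follow. Summed levels of the list were 8707 to 9504 CPM in Lmnb1-/- against 11366 to 13031 CPM in wild type libraries. Kcnj8 and Abcc9 had 10 counts or fewer. Fibroblast markers other than collagens summed to 513 to 665 CPM in Lmnb1-/- and 556 to 770 CPM in wild type libraries, with 5 of 8 below 0, none called, and Dpt and Fap at 10 counts or fewer. Epicardial markers had 8 of 10 below 0, none called, and summed to 2366 to 2612 CPM in Lmnb1-/- and 2620 to 3616 CPM in wild type libraries. Cartilage markers other than collagens had 4 of 4 below 0, none called, and summed to 51.6 to 62.7 CPM in Lmnb1-/- and 82.6 to 125 CPM in wild type libraries. Macrophage markers had 4 of 4 tested above 0, none called. They summed to 36.7 to 424 CPM in Lmnb1-/- and 57.9 to 236 CPM in wild type libraries. Of tested endothelial markers 2 were below and 2 above 0, and 2 of 2 cardiomyocyte markers were below 0, none called. The summed levels of the 2 groups did not overlap for the smooth muscle, epicardial and cartilage lists. For the cartilage list the separation rested on Acan. That gene was at 0.643, 6.17 and 1.03 CPM in Lmnb1-/- and 23.05, 5.17, 64.8 and 14.3 CPM in wild type libraries. Sox5, Sox6 and Sox9 had log2 fold changes of -0.03, -0.38 and -0.15 (SE 0.32, 0.18 and 0.37). For the epicardial list the nearest sums, 2612 and 2620 CPM, almost met. Sums overlapped for the fibroblast, macrophage, endothelial and cardiomyocyte lists. The part of these lists in the collagen levels was not tested, and in bulk RNA fewer cells of a type and less RNA per cell cannot be told apart.

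**Figure D2:**
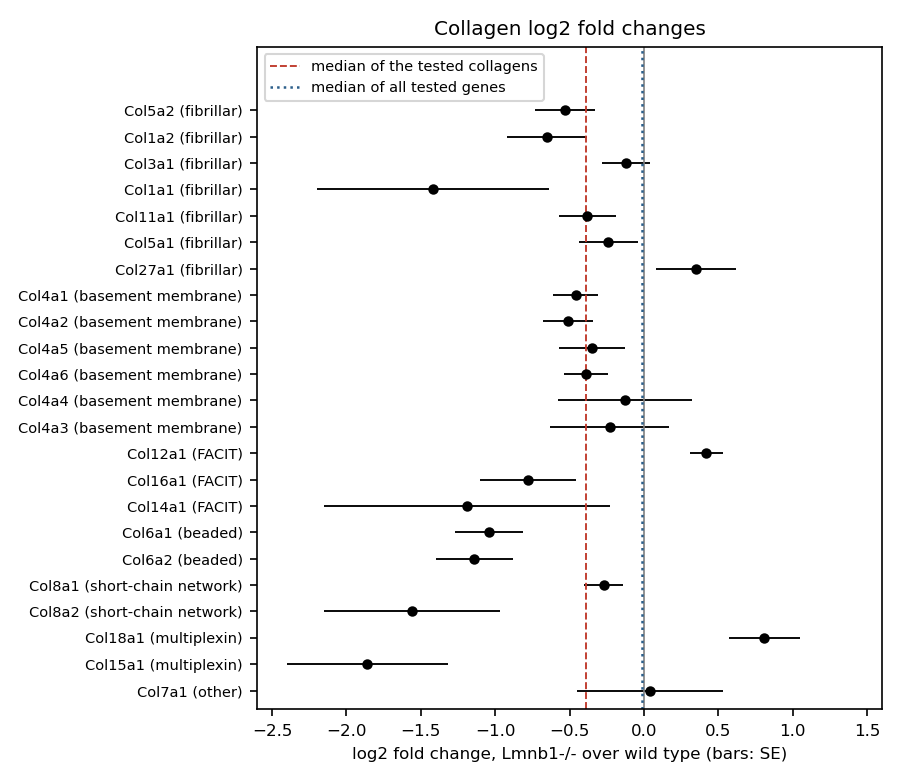
Log2 fold change of each tested collagen gene, Lmnb1-/- over wild type, with its standard error, by class. Of the 23 genes 19 lie left of 0, and the dashed line marks their median of -0.39 and the dotted line the median of all tested genes, -0.015.

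The beaded-filament chains Col6a1 and Col6a2 had the smallest p-values among the collagens. Type VI collagen forms a microfibrillar net next to the cell surface and binds the proteoglycan NG2. Col6a1 was at 32.5, 63.9 and 43.2 CPM in Lmnb1-/- replicates 1 to 3 and at 77.9, 79.6, 118 and 97.0 CPM in wild type replicates 1 to 4. Col6a2 was at 6.75, 8.97 and 10.8 CPM in Lmnb1-/- and 15.7, 17.6, 21.8 and 21.1 CPM in wild type libraries. The groups did not overlap for either gene, and the Lmnb1-/- level was 0.485 times that of wild type for Col6a1 (log2 fold change -1.04, SE 0.23) and 0.453 times for Col6a2 (-1.14, SE 0.26). Neither passed in edgeR, with adjusted p-values of 0.0724 and 0.0640. Both passed without wild type replicate 1 (edgeR adjusted p = 0.0381 and 0.0312) and when no count filter was used (0.016 and 0.0238), where 0.579% of genes were called lower. Neither passed among male libraries (edgeR adjusted p = 0.125 and 0.11) or with sex as a covariate (0.185 and 0.136). The same held with a replicate block (0.0594 and 0.1), with limma voom (0.0632 and 0.0763) and on leaving out any other single library. DESeq2 called Col6a1 (0.00222) and not Col6a2 (0.0522). Col6a3 was not analysed here. The other beaded chain genes were near the detection limit, and the most counted was Col6a6, with 2 counts summed over Lmnb1-/- and 24 over wild type libraries.

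The basement membrane chains of type IV all lay below 0, by similar amounts for the abundant members. Col4a1 and Col4a2, which form the common type IV network of nearly all basement membranes, are neighbouring genes. Col4a1 was at 4054, 4539 and 4258 CPM in Lmnb1-/- and 4483, 7583, 5347 and 6220 CPM in wild type libraries, and Col4a2 at 2190, 2440 and 2531 CPM in Lmnb1-/- against 2402, 4463, 3275 and 3454 CPM in wild type libraries. In both, wild type replicate 1 fell within the Lmnb1-/- range, and the other 3 wild type libraries lay above it. Log2 fold changes were -0.46 (SE 0.15) and -0.51 (SE 0.17) with edgeR adjusted p-values of 0.212 and 0.232, and among male libraries -0.69 and -0.73 with 0.0282 and 0.0296. The X-linked pair Col4a5 and Col4a6, which form networks in specialised basement membranes, had log2 fold changes of -0.35 and -0.39 (SE 0.22 and 0.15). Col4a5 was at 605, 715 and 678 CPM in Lmnb1-/- and 553, 1185, 793 and 870 CPM in wild type libraries. Col4a6 was at 176, 177 and 199 CPM in Lmnb1-/- and 191, 309, 205 and 268 CPM in wild type libraries. For both, all wild type libraries but replicate 1 lay above the Lmnb1-/- range. The pair best known from kidney glomeruli, Col4a3 and Col4a4, was low and overlapped between groups. Col4a3 was at 12.2, 14.6 and 24.1 CPM in Lmnb1-/- and 9.13, 35.1, 22.2 and 16.9 CPM in wild type libraries, and Col4a4 at 9.33, 30.8 and 21.6 CPM in Lmnb1-/- against 10.4, 33.1, 23.0 and 24.0 CPM in wild type libraries. Their log2 fold changes of -0.23 and -0.13 turned positive without wild type replicate 2, and Col4a4 also without Lmnb1-/- replicate 1.

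Among the fibrillar chains the values turned on single wild type libraries. Col1a1 and Col1a2 encode type I collagen, the main fibre of connective tissue. Col1a1 was at 799, 712 and 727 CPM in Lmnb1-/- and at 980, 5024, 1241 and 806 CPM in wild type libraries, so the Lmnb1-/- values were close together and wild type replicate 2 was far above every other library. The log2 fold change of -1.42 had an SE of 0.78 (edgeR adjusted p = 0.499), and the groups did not overlap, though wild type replicate 4 was only just above the highest Lmnb1-/- value. Without wild type replicate 2 the log2 fold change was -0.43 (SE 0.14, edgeR adjusted p = 0.246). Col1a2 was at 2027, 1999 and 2406 CPM in Lmnb1-/- and 2157, 5135, 3236 and 2948 CPM in wild type libraries, with a log2 fold change of -0.65 (SE 0.27, edgeR adjusted p = 0.359). Wild type replicate 2 was highest here too, by less than for Col1a1.

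Col5a2, which limits the width of type I fibres as part of type V, was at 3857, 4745 and 3788 CPM in Lmnb1-/- and 3762, 7352, 6396 and 6416 CPM in wild type libraries. Wild type replicate 1 was below all Lmnb1-/- libraries and the other 3 above them. Its log2 fold change was -0.53 (SE 0.20, edgeR adjusted p = 0.297), and -0.70 (edgeR adjusted p = 0.00905) without wild type replicate 1. Its neighbour on the chromosome and the opposite strand, Col3a1, the type III chain of distensible tissues such as vessels, was at 1994, 1852 and 2440 CPM in Lmnb1-/- and 1715, 2626, 2046 and 2732 CPM in wild type libraries. The groups overlapped, and the log2 fold change was -0.12 (SE 0.16). Col5a1, the partner of Col5a2, was at 737, 753 and 840 CPM in Lmnb1-/- and 714, 1326, 887 and 745 CPM in wild type libraries. Col11a1 was at 1410, 1202 and 1188 CPM in Lmnb1-/- and 1157, 2191, 1467 and 1768 CPM in wild type libraries. Both overlapped between the groups, with wild type replicate 2 highest and wild type replicate 1 lowest among wild type. Col5a1 and Col11a1 had log2 fold changes of -0.24 and -0.38 (SE 0.20 and 0.19), and neither passed. The remaining tested member, Col27a1, a fibrillar chain of cartilage and developing tissue, was low, at 25.6 ± 6.48 CPM in Lmnb1-/- and 21.2 ± 8.36 CPM in wild type explants (SD, n = 3 and 4), with a log2 fold change of 0.35 that was -0.02 among male libraries.

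The FACIT genes went both ways. Col12a1, which coats type I fibres in tissues under tension, was at 522, 628 and 571 CPM in Lmnb1-/- and 374, 456, 404 and 479 CPM in wild type libraries, with no overlap. Its log2 fold change of 0.42 (SE 0.11) did not pass by edgeR (adjusted p = 0.114) and did by DESeq2 (adjusted p = 0.0418). Col16a1, a FACIT chain that joins fibrils and microfibrils, was at 156, 174 and 203 CPM in Lmnb1-/- and 181, 472, 257 and 324 CPM in wild type libraries, overlapping only at wild type replicate 1. Its log2 fold change was -0.78 (SE 0.32, edgeR adjusted p = 0.359), -1.15 among male libraries (0.0188) and -1.15 with sex as a covariate (0.0445, where 0.251% of all genes were called lower). Since no Lmnb1-/- library is female, both of these fits compare Lmnb1-/- with wild type replicates 2 and 4. Their agreement follows from the design. Col14a1, a FACIT chain of fibril surfaces, was at 1.93, 10.1 and 17.5 CPM in Lmnb1-/- and 2.61, 26.9, 22.2 and 34.2 CPM in wild type libraries. The groups overlapped, since wild type replicate 1 was almost as low as the lowest Lmnb1-/- library (log2 fold change -1.19, SE 0.96).

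The 2 multiplexins, whose C-terminal fragments are known as endostatin and its relative restin, had fold changes of opposite sign, and neither passed. Col18a1 was at 35.1, 63.4 and 64.2 CPM in Lmnb1-/- and 25.7, 36.2, 24.1 and 38.0 CPM in wild type libraries, so Lmnb1-/- replicate 1 lay within the wild type range. Col15a1 had 1, 7 and 6 counts in Lmnb1-/- and 19, 5, 26 and 18 counts in wild type libraries, which scaled to 0.322, 3.93 and 3.08 against 8.26, 5.17, 9.79 and 7.59 CPM. Counts this low leave the size of the difference imprecise, and as the gene passed the filter through its wild type libraries alone, its fold and p are given as a description. Log2 fold changes were 0.81 (SE 0.24) for Col18a1 and -1.86 (SE 0.54) for Col15a1, with edgeR adjusted p-values of 0.157 and 0.146. Col18a1 lies on chromosome 10 with 2 coding genes between it and Col6a1, so near neighbours among the collagens had fold changes of opposite sign.

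Type VIII collagen is a short-chain collagen of endothelial and mesenchymal cells, best known from Descemet's membrane of the cornea. Its abundant chain Col8a1 was at 2401, 2758 and 2734 CPM in Lmnb1-/- and 2461, 3627, 3121 and 3453 CPM in wild type libraries (log2 fold change -0.27, SE 0.13, edgeR adjusted p = 0.394). Its rarer chain Col8a2 was at 21.9, 39.3 and 38.5 CPM in Lmnb1-/- and 31.3, 130.2, 84.0 and 145 CPM in wild type libraries. Wild type replicate 1 was again inside the Lmnb1-/- range, and the other 3 were at least 2 times the highest Lmnb1-/- value. The log2 fold change of Col8a2 was -1.56 (SE 0.59, edgeR adjusted p = 0.342). The gene passed among male libraries at -2.10 (0.00447), without wild type replicate 1 at -1.88 (0.0137) and with a replicate block at -1.14 (0.0362). With that block 0.39% of all genes were called lower, and whether replicate numbers pair these libraries is not known. Col8a2 did not pass with sex as a covariate (-2.09, edgeR adjusted p = 0.130) or in DESeq2 (0.166). Col7a1, the anchoring fibril chain of skin, was at 68.2, 30.8 and 51.4 CPM in Lmnb1-/- and 31.3, 105, 40.3 and 37.5 CPM in wild type libraries, with a log2 fold change of 0.04 (SE 0.49) whose sign varied with the setting.

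Ratios between chains of one type ask whether partner genes shifted by different amounts, since each ratio is taken within a library. Of 5 ratios none differed by a two-sided exact permutation test over the 35 divisions of the libraries, whose smallest possible p is 0.0286. Col4a1 to Col4a2 was the steadiest, at 1.81, 1.81 and 1.64 in Lmnb1-/- and 1.82, 1.66, 1.59 and 1.76 in wild type libraries, per length. The groups overlapped, and no library stood apart. Col1a1 to Col1a2 was 0.356, 0.321 and 0.272 in Lmnb1-/- and 0.410, 0.882, 0.346 and 0.247 in wild type libraries, with wild type replicate 2 the highest of the 7. Col8a1 to Col8a2 ran from 59.6 to 93.1 in Lmnb1-/- and was 66.7, 23.6, 31.5 and 20.1 in wild type libraries. Its mean log2 ratio was 6.12 ± 0.37 in Lmnb1-/- and 4.98 ± 0.77 in wild type libraries (SD, n = 3 and 4), a difference of 1.13 with an exact permutation p of 0.171 and 0.571 after adjustment over the 5 ratios. The differences in log2 ratio were -0.41 for type I, 0.04 for type IV, 0.30 for Col5a1 to Col5a2 and 0.08 for Col6a1 to Col6a2, with exact permutation p-values of 0.514, 0.571, 0.229 and 0.743.

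**Figure D3:**
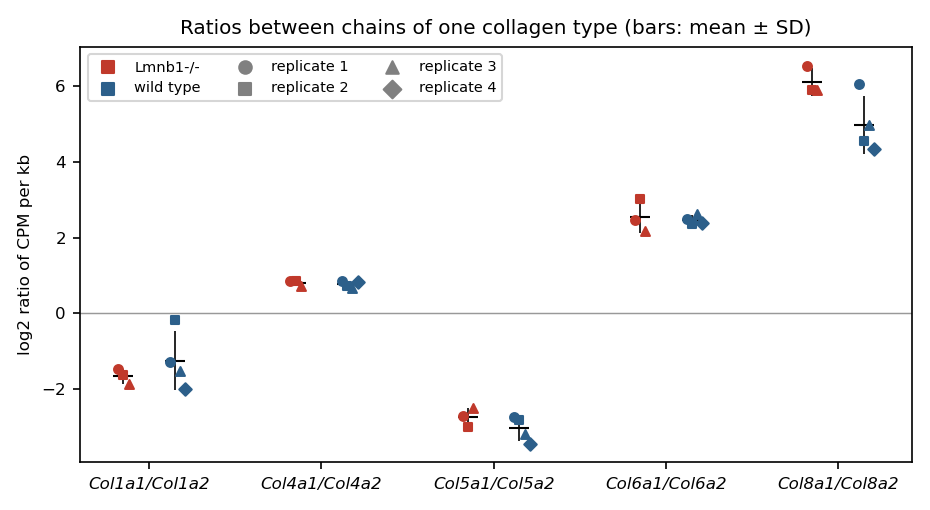
Log2 ratio of CPM per kb between 2 chains of one collagen type in each library, Lmnb1-/- in red left of wild type in blue, with symbols for replicates and bars for mean ± SD. The type IV ratio varies least, and wild type replicate 2 lies above the other libraries for type I.

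Genes that act on collagen were then counted in 5 lists with 66 members, of which 46 were tested. Of these 4 fell and none rose in the edgeR fit over all genes, where 0.343% of all genes were called lower and 0.362% higher. They were Adamts2, Loxl1, Cspg4 and Timp3. The median log2 fold change was -0.24, with 38 of 46 below 0. Calls depended on single libraries. All 4 passed without wild type replicate 1, where 7 genes of the lists did (2.63% of all genes passed). Of the 4, Cspg4 alone passed without wild type replicate 2 (0.374% of all genes), wild type replicate 4 (0.266%) or Lmnb1-/- replicate 3 (0.118%). None of the 4 passed when Lmnb1-/- replicate 1 (0.0367%) or 2 (0.0273%), or the third wild type library (0.0378%), was dropped.

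Of 16 tested genes for folding and modifying procollagen in the endoplasmic reticulum none passed, 12 were below 0 and the median was -0.08. Serpinh1, the collagen chaperone HSP47, was at 3951 ± 201 CPM in Lmnb1-/- and 3895 ± 254 CPM in wild type explants (SD, n = 3 and 4), and P4hb, the beta subunit of prolyl 4-hydroxylase, at 2421 ± 324 CPM in Lmnb1-/- and 2359 ± 123 CPM in wild type explants. The smallest p-values were those of Crtap, a partner of prolyl 3-hydroxylase, of Glt25d1, a collagen galactosyltransferase, and of Leprel2, of the prolyl 3-hydroxylase family. Their log2 fold changes were -0.47, -0.28 and -0.25 (SE 0.16, 0.12 and 0.13), and edgeR adjusted p-values were 0.235, 0.345 and 0.443. Serpinh1 and P4hb were chosen after their values were seen.

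Among genes for propeptide cleavage and fibril assembly, 1 of 11 fell, with a median of -0.45. Adamts2, the enzyme that removes the N-propeptide of fibrillar procollagens, was at 9.33, 15.1 and 12.3 CPM in Lmnb1-/- and 20.4, 27.9, 31.3 and 36.3 CPM in wild type libraries. The groups did not overlap, and the log2 fold change was -1.27 (SE 0.25, edgeR adjusted p = 0.0395). The call was lost with limma voom (0.0713), sex as a covariate (0.0706) and both count columns summed (0.0502). Its relative Adamts3 was near the floor, at 3.01 ± 1.52 CPM in Lmnb1-/- and 6.71 ± 1.05 CPM in wild type explants (SD, n = 3 and 4; log2 fold change -1.20, SE 0.42), and Pcolce, the enhancer of C-propeptide cleavage, had -0.37 (SE 0.16). Neither passed, with edgeR adjusted p-values of 0.238 and 0.332.

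In the cross-linking list 1 of 6 fell, with a median of -0.23. Loxl1, a lysyl oxidase that acts mainly on elastic fibres, was at 66.6, 56.7 and 76.1 CPM in Lmnb1-/- and 92.2, 165, 116 and 121 CPM in wild type libraries, a log2 fold change of -0.87 (SE 0.18, edgeR adjusted p = 0.0491). The groups did not overlap, but the call was lost with the replicate block (0.104), limma voom (0.0763) and both count columns summed (0.0617). Loxl2, which cross-links type IV collagen, had -0.36 (SE 0.16) and Tgm2, a transglutaminase, -0.88 (SE 0.48), with edgeR adjusted p-values of 0.344 and 0.496.

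Among receptors and uptake genes 1 of 6 fell, and all 6 were below 0, with a median of -0.42. Cspg4 encodes NG2, a pericyte proteoglycan that binds types V and VI, and is also in the smooth muscle and pericyte list. It was at 56.3, 55.5 and 82.2 CPM in Lmnb1-/- and 137, 183, 160.4 and 134 CPM in wild type libraries (log2 fold change -1.24, SE 0.16, edgeR adjusted p = 0.00819). The collagen receptor subunit Itga1 and the uptake receptor Mrc2 had log2 fold changes of -0.79 and -0.55 (SE 0.22 and 0.17) and did not pass, although their groups did not overlap. The edgeR adjusted p-values were 0.160 and 0.183.

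Of genes for collagen breakdown 1 of 7 fell, with a median of -0.26. Timp3, a matrix-bound inhibitor of metalloproteinases, was at 1668, 2059 and 2069 CPM in Lmnb1-/- and 2698, 3277, 2846 and 2989 CPM in wild type libraries (log2 fold change -0.61, SE 0.11, edgeR adjusted p = 0.0360), and it was lost with both count columns summed (0.0506). Mmp16, a membrane-type metalloproteinase, had -0.54 (SE 0.14, edgeR adjusted p = 0.113) and the lysosomal collagenase gene Ctsk, at 2.75 ± 2.21 CPM in Lmnb1-/- and 6.36 ± 2.88 CPM in wild type explants (SD, n = 3 and 4), had -1.45 (SE 0.57, edgeR adjusted p = 0.285). Neither passed. The metalloproteinase genes Mmp8, Mmp9 and Mmp13 did not pass the count filter. Mmp2 and Mmp14 passed the filter, and neither was called.

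**Figure D4:**
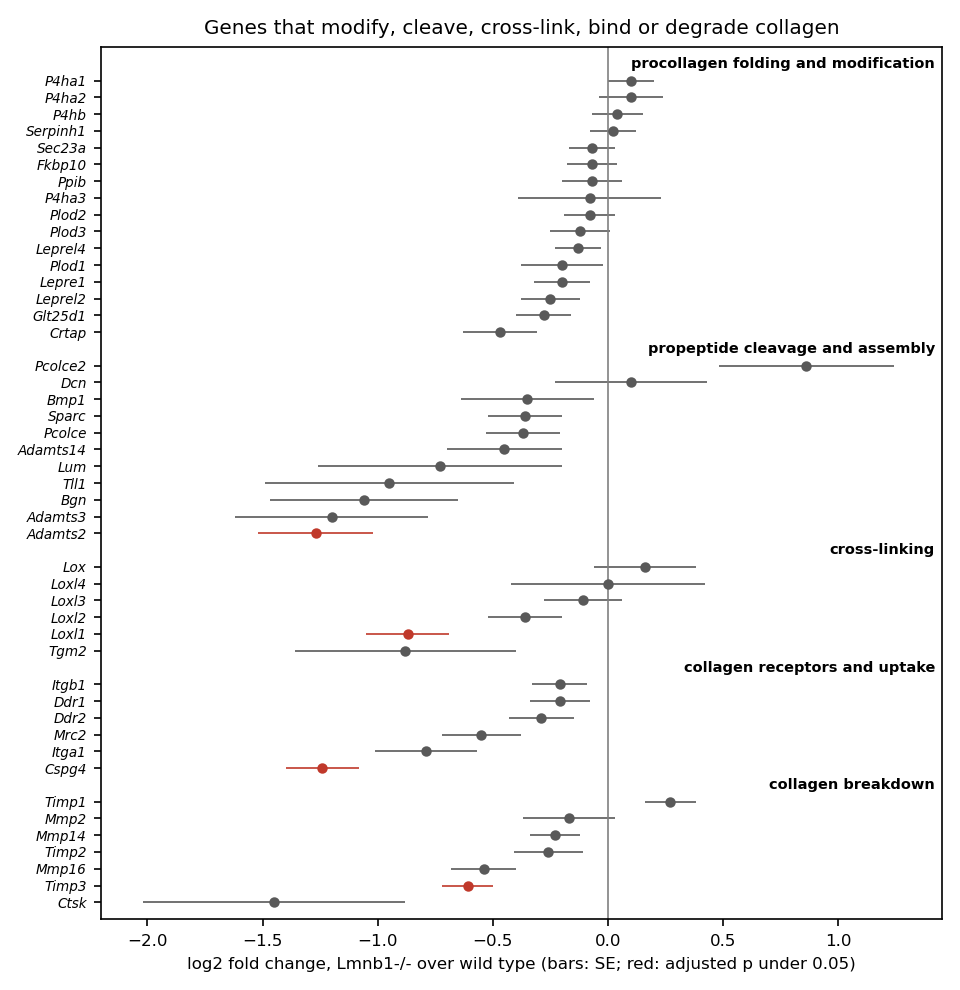
Log2 fold change, Lmnb1-/- over wild type, with its standard error, of the 46 tested genes that modify, cleave, cross-link, bind or degrade collagen, with genes past an adjusted p of 0.05 in red. The 4 red genes, Adamts2, Loxl1, Cspg4 and Timp3, all lie left of 0, and the folding genes lie between -0.47 and 0.10.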

How the data were processed

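The deposited tables, 1 per library, list counts of reads per gene in a first column and an unnamed second column, which held 16.6 to 19.6% of both columns' counts. The first was used. TopHat, edgeR and build mm9 are named in the submitters' processing notes. The counting program and annotation are not given in the sources used here. The TruSeq RNA v2 kit does not mark strand, so reads where genes overlap cannot be told apart. Totals of the counts deposited by the authors ran from 1024898 to 3066936.

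From these counts, 10775 genes passed filterByExpr. They were scaled by TMM and tested with edgeR's quasi-likelihood test (edgeR 4.0.16, R 4.3.3), Lmnb1-/- (n = 3) against wild type libraries (n = 4), with Benjamini-Hochberg adjustment over all genes and a threshold of 0.05. Lengths came from a GRCm38 annotation. Ratios used a two-sided exact permutation test. The fits were tested on simulated data. Alternatives were RLE scaling, library totals, no filter, 1 CPM in 3 libraries, DESeq2 1.42.0, limma voom 3.58.1, a replicate block, male libraries, sex as a covariate, both columns summed, and each library left out. Replicates were checked for duplicates, and none was found.

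Genes given with values were those past the threshold, the 12 collagens of smallest p, the 3 of highest CPM per kb in each class, all tested chains of types I, III, IV, V, VI and VIII, and in the other lists those past the threshold plus the 3 of smallest p. Names matched 1 row for 137 of 139 entries of the lists, 8 by synonym, and 949 rows shared a name. The members, lists and tests were chosen with earlier results of these data known. Col6a3 was not analysed here.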

Additional observations from a re-analysis of the deposited data

Results flagged for a closer look

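Of 35 groups of wild type values examined, 2 had a single library far from the other 3 by Dixon's test at its 95% critical value. About 1 in 20 groups would be marked by chance. For Col1a1, wild type replicate 2 was at 5024 CPM and the other wild type libraries at 806 to 1241 CPM, a gap of 0.897 of the whole range. For Col7a1, wild type replicate 2 was at 105 CPM and the others at 31.3 to 40.3 CPM, a gap of 0.879 of the range. Both values come from the shallowest library, with 1024898 counts, and rest on 4863 counts for Col1a1 and 102 for Col7a1.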

How the results depend on the processing

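The number of collagens called lower, 0, was unchanged with RLE scaling, library totals, the 1 CPM filter, limma voom and both columns summed. It was 2 with no filter, 1 with DESeq2 (which also called 1 higher), 1 with sex as a covariate and 6 among male libraries. On leaving out each library it was 6 without wild type replicate 1 and 0 in every other case. The median of -0.39 ran from -0.31 to -0.64 across alternatives and from -0.51 to -0.26 on leaving out each library. The count over the lists of genes that act on collagen, 4, was 2 with voom, 1 with both columns summed and 0 to 7 on leaving out each library. These need not be the same genes: the replicate block and sex as a covariate also gave 4, but lost Loxl1 (0.104) and Adamts2 (0.0706). Without Lmnb1-/- replicate 1 the 1 call was Mrc1, which entered that test through the libraries where it is high and is not used. The replicate block called 1 collagen, Col8a2. Whether replicate numbers pair the libraries is not known. Same-numbered libraries' deviations correlated at 0.266, -0.158 and -0.0895, too few values to settle it. Replicate 1 had the lowest level of its group for 20 of the 23 tested collagens in wild type and for 16 in Lmnb1-/- libraries.

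Reversed signs were few. Col7a1, at 0.04, was -0.07 with DESeq2, -0.02 with the replicate block, -0.39 with sex as a covariate and -0.38 in the male libraries. Dropping wild type replicates 1, 3 and 4 in turn gave -0.14, -0.07 and -0.08, dropping Lmnb1-/- replicate 1 gave -0.27, the lowest, and the highest was 0.49, without wild type replicate 2. Col27a1 was -0.02 in both fits that take account of sex. Without wild type replicate 2, Col4a3 was 0.05 and Col4a4 0.04, and Col4a4 was 0.27 without Lmnb1-/- replicate 1. The lowest values on leaving out a library were -0.56 for Col4a3 and -0.55 for Col4a4. The Col6a1 to Col6a2 difference was -0.15 without Lmnb1-/- replicate 2. The cause was not tested. Of 458 single-gene values under 17 alternatives, 399 kept direction and side of the threshold, 28 lost the call, 18 gained it and 13 reversed. No Lmnb1-/- library is female, and 1 alternative compared males alone. With sex as a covariate, the fold change again compares Lmnb1-/- with wild type replicates 2 and 4. The male and covariate fits are therefore not separate checks. With totals of 1024898 to 3066936 counts, collagens near 1 CPM rest on a few reads.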

Other observations

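Biglycan (Bgn), a small proteoglycan that binds collagen fibrils, was named after its values were seen. It was at 242, 247 and 230.2 CPM in Lmnb1-/- and 359, 932, 375 and 354 CPM in wild type libraries. The groups did not overlap, and wild type replicate 2 was the highest, as for Col1a1. Its log2 fold change was -1.06 (SE 0.41, edgeR adjusted p = 0.349). Pcolce2, also named after its values were seen, ran the other way, at 28.6, 21.9 and 26.2 CPM in Lmnb1-/- and 24.4, 15.5, 12.4 and 5.06 CPM in wild type libraries, with overlapping groups and a log2 fold change of 0.86 (SE 0.38, edgeR adjusted p = 0.361).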
